A study of Mus musculus with 2 samples.

Results

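Satellite glia markers were followed in dorsal root ganglion (DRG) samples of mice that lack DOCK8 and of mice that carry 1 working copy of it. The markers are 9 genes, Fabp7, Apoe, Sox10, Sox2, S100b, Cdh19, Erbb3, Ptgds and Sparcl1, of 37008 gene names on the array. They were taken as every non-control probe that bears 1 of these gene names in the scanner files, which gave 11 probes on 29 spots per array. The rule that collects the probes uses gene names and no signal, but the genes were chosen with earlier results of these data known. Of the 11 probes, 10 were well above background on both arrays, and so each of the 9 genes had at least 1 probe read in both samples.

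The first group was DRG neurons, as labelled, of C57BL/6 mice of genotype Dock8-/- with the (tcr)AND transgene, a T cell receptor transgene, described as having a high level of the itch cytokine interleukin-31 (IL-31). The second was the same material of C57BL/6 mice of genotype Dock8+/- with the same transgene, described as having a low level of IL-31, so the control carried both the transgene and a single Dock8 allele. Each genotype had 1 array, Cy3-labelled cRNA was made from total RNA, and both arrays came from the same slide scan. Age, sex, the number of mice pooled, if any, and the way neurons were separated from other cells of the ganglion are not given in the sources used here. With 1 array each there can be no test and no p-value or standard error, and every difference below is between 2 arrays.

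Satellite glia are the flat cells that wrap the cell body of each sensory neuron. They arise, like Schwann cells, from the neural crest, take up glutamate and potassium around the neuron, and become reactive after nerve injury, when the filament protein GFAP is made. Several of their usual markers are shared, since SOX10, ERBB3, S100B and CDH19 are also present in Schwann cells, APOE in macrophages and astrocytes, PTGDS in the meninges and in oligodendrocytes, and SPARCL1 in astrocytes and blood vessels. FABP7 is a common marker of satellite glia in mouse ganglia, and SOX2 marks satellite glia and immature Schwann cells.

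Both samples gave signal for neuronal and for glial marker genes. All 18 of the sensory neuron markers were well above background on both arrays, as were the 9 satellite glia markers. Of the probes on the Dock8-/- array, 50.7% were well above background, against 56.9% for Dock8+/-. Processed intensity had a 75th percentile of 145.6 in Dock8-/- and 303.8 in Dock8+/-. A scaled log2 signal is the log2 processed intensity minus the log2 of this percentile, and a difference is the value in Dock8-/- minus that in Dock8+/-. Scaling therefore adds 1.06 to each unscaled log2 difference. On the scale of 8 spike-in probes, all genes are shifted by a further -1.85, and there all 9 markers lie below 0. In bulk RNA of this kind, fewer cells of a type and less RNA per cell cannot be told apart.

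The markers had differences in both directions at 75th percentile scaling. Of the 9 genes, 1 was higher by 2-fold or more in the Dock8-/- sample, Sox2, and 1 lower by 2-fold or more, Fabp7. Over all 18649 genes measured on both arrays, 9.08% were higher by 2-fold or more and 7.03% lower by 2-fold or more. The median difference of the 9 markers was 0.04, beside 0.03 over all measured genes, with 5 markers above 0 and 4 below. Differences of the markers ran from -2.21 to 1.52 and had an SD of 1.1, beside an SD of 0.78 over all measured genes. Repeated spots of a probe on 1 array varied little. The SD for a difference of single spots was 0.06 on the log2 scale, estimated from 298 probes with 10 spots on each array. All spots of these probes were well above background, so this SD may not hold for dim probes. It also leaves out error from the labelling and hybridisation of each array.

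**Figure D1:**
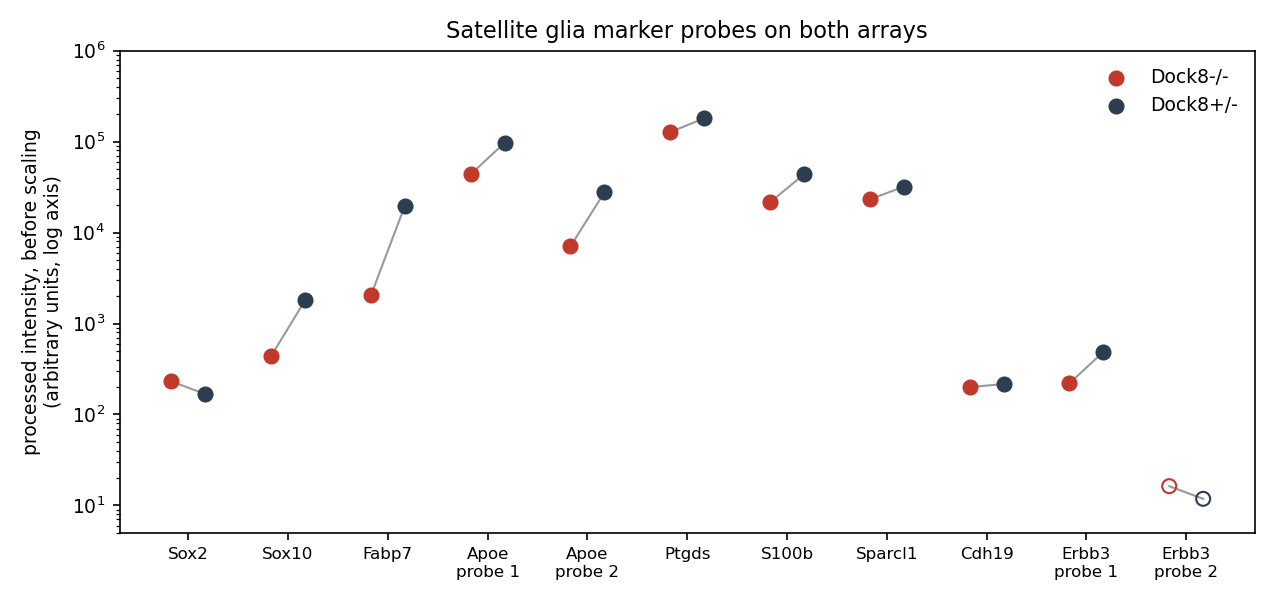
Processed intensity before scaling (log axis) of the 11 satellite glia marker probes, with the Dock8-/- array left of the Dock8+/- array in each pair; filled points are well above background and open points are not. Sox2 is the only marker whose bright probe has the higher intensity on the Dock8-/- array, and Fabp7 has the steepest line, 2036 in Dock8-/- against 19687 in Dock8+/-.

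Fabp7 had the largest difference of the 9 markers in size. It encodes the brain-type fatty acid-binding protein, a cytoplasmic carrier of long-chain fatty acids. Its processed intensity was 2036 in Dock8-/- and 19687 in Dock8+/-, with errors by the scanner software of 204 in Dock8-/- and 1969 in Dock8+/-. On the scaled log2 axis it stood at 3.81 in Dock8-/- and 6.02 in Dock8+/-, a difference of -2.21, or 4.63-fold lower. Of all measured genes, 139, or 0.745%, had a lower difference than Fabp7. The value rests on a single spot of a single probe, at chr10:57508039-57508098 of mm9 on the plus strand, and it was -2.43 to -2.17 under the 10 alternative settings other than spike-in scaling.

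The transcription factors Sox2 and Sox10 differed in opposite directions at 75th percentile scaling. Sox2, a SOXB1 factor of neural progenitors and satellite glia, had an intensity of 231.0 in Dock8-/- and 167.7 in Dock8+/-. After scaling the log2 value was 0.67 in Dock8-/- and -0.86 in Dock8+/-, which is 2.88-fold higher in the Dock8-/- sample but lower by 0.33 on the spike-in scale. The Sox2 value rests on 1 dim spot, below the median signal of measured genes. Dim probes leaned higher in Dock8-/-, as the all-gene median difference was 0.43 with no filter on them. It was -0.04 for genes at or above the median signal. Sox10, the SOXE factor that specifies peripheral glia, had an intensity of 438.6 in Dock8-/- and 1792 in Dock8+/-. Its scaled signal was 1.59 in Dock8-/- and 2.56 in Dock8+/-, or 1.96-fold lower, just short of 2-fold. The difference for Sox10 passed 2-fold under normexp background correction, at -1.05.

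A ratio of these genes does not depend on the scaling of the arrays by a constant. The ratio of Sox2 to Sox10 signal was 5.63-fold higher on the Dock8-/- array than on the Dock8+/- array, and the gap between their log2 differences was 2.23 to 2.49 under all settings. For Sox2 and Fabp7 the gap was 3.74, with 3.60 as the lowest value under any setting. The probe of Sox2 is at chr3:34551260-34551316 on the plus strand and that of Sox10 at chr15:78985343-78985402 on the minus strand (mm9).

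Relatives of Sox10 and Sox2 were higher more often than lower at 75th percentile scaling, with 4 of 9 measured members of the SOX list higher by 2-fold or more and 0 lower by 2-fold or more, although the list median of 0.97 became -0.89 on the spike-in scale. With the looser filter of positive and significant signal, which admits 14 of the SOX list, 8 lay above 0 and 6 below, with a median of 0.10. With the mean of each gene's probes, 3 were higher by 2-fold or more, with a median of 0.63. Sox9, a SOXE factor of astrocytes, chondrocytes and early neural crest, was 3.67-fold higher, with intensities of 380.7 in Dock8-/- and 216.6 in Dock8+/-. Its probes gave differences from 1.62 to 1.88. Sox8, the remaining SOXE gene, differed by 1.29 on its brightest probe and by -0.03 on the other. Sox11, a SOXC factor of developing neurons, differed by 1.71 on its brightest probe, its 3 probes lying between 1.46 and 2.58, and Sox5 by 1.57. Sox8 and Sox11 were dimmer than Sox2. The brightest Sox8 probe had an intensity of 49.0 in Dock8-/- and 41.9 in Dock8+/-. That of Sox11 had 76.1 in Dock8-/- and 48.4 in Dock8+/-. Sox1, Sox3, Sox7, Sox15 and Sox18 were read on the Dock8+/- array only, and Sox12 on neither.

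The lipid-handling markers other than Fabp7, Apoe and Ptgds, were within 2-fold on their brightest probes at 75th percentile scaling, but differed by -1.94 and -1.29 on the spike-in scale. Apoe encodes apolipoprotein E, the main lipid carrier secreted by glia and macrophages, and was read by 2 probes that gave unequal values. They are shown because the Apoe result depends on which is used, and the third sequence is the dim Erbb3 probe described below.
Apoe A_51_P171999: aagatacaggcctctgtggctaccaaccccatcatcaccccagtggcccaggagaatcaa
Apoe A_55_P2736230: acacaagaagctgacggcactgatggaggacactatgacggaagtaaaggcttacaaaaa
Erbb3 A_55_P2119897: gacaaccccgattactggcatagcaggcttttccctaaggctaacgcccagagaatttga

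The brighter Apoe probe, A_51_P171999, is at chr7:20281732-20281791 of mm9 on the minus strand and holds 55% G and C. Its intensity was 43767 in Dock8-/- and 97190 in Dock8+/-, a difference of -0.09. The dimmer probe, A_55_P2736230, holds 45% G and C, and the file places it at chr7:20281578-20281627, a span of 50 positions for 60 bases. Its intensity was 7068 in Dock8-/- and 27693 in Dock8+/-, a difference of -0.91, or 1.88-fold lower. Both probes were below 0, and they stood 0.82 apart. Of 4238 genes with 2 probes measured on both arrays, 29.5% had a wider gap, and their median gap was 0.51. The mean of the Apoe probes gave -0.50, and the brighter probe gave -0.33 under quantile normalisation and -0.31 both with normexp and in the deposited value table.

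Ptgds, encoding the lipocalin-type prostaglandin D2 synthase, was printed in 10 spots as was Sparcl1, and the other 9 probes were in single spots. Before scaling, its spots had a lowest, median and highest intensity of 119812, 127944 and 135688 on the Dock8-/- array, against 154225, 184190 and 203208 on the Dock8+/- array. The spots did not overlap between the arrays and were lower in Dock8-/-. After scaling they were 9.68 to 9.86 in Dock8-/- and 8.99 to 9.39 in Dock8+/-, again without overlap but higher in Dock8-/-. Overlap is judged here against repeated spots of 1 array, and the share of all 10-spot probes without overlap is not given. Nothing particular to Ptgds is therefore read from it. The scaled difference was 0.56, or 1.48-fold higher, with spot SDs of 0.06 in Dock8-/- and 0.12 in Dock8+/- (10 spots each, on 1 array per genotype). The direction depended on the scaling, as the difference was -0.12 under quantile normalisation, -0.10 in the deposited value table and -1.29 on the spike-in scale.

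Sparcl1, encoding hevin, a matricellular protein of the SPARC family that glia secrete, was read in the same way. Its 10 spots had a lowest, median and highest intensity of 21288, 23170 and 24756 on the Dock8-/- array, against 29312, 32437 and 33333 on the Dock8+/- array. After scaling the spots lay at 7.19 to 7.41 in Dock8-/- and 6.59 to 6.78 in Dock8+/-, with spot SDs of 0.07 in Dock8-/- and 0.06 in Dock8+/-. Sparcl1 was thus 1.52-fold higher, a difference of 0.60, and lay between 0.37 and 0.63 under the 10 settings other than spike-in scaling, where it was -1.25.

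**Figure D2:**
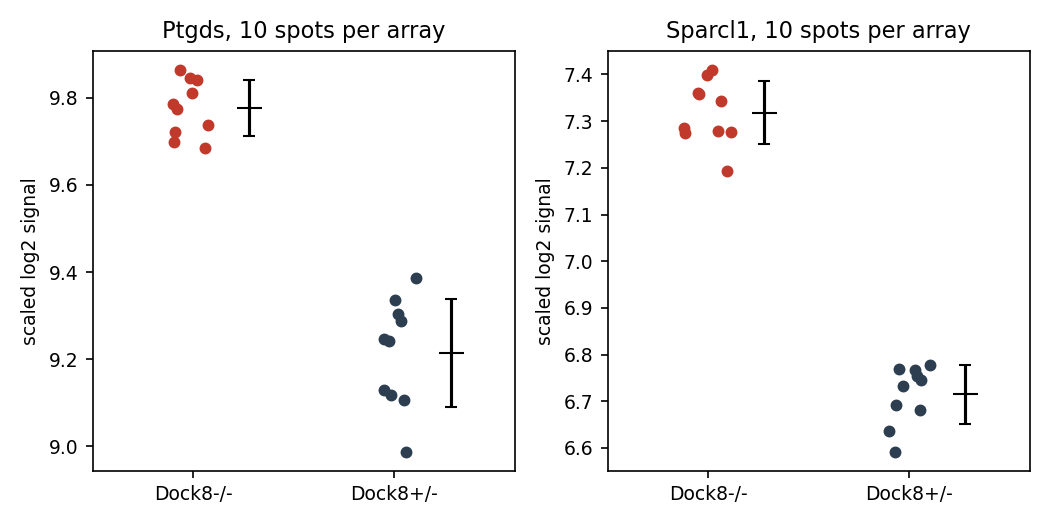
Scaled log2 signal of the 10 spots of Ptgds (left) and Sparcl1 (right) on the Dock8-/- and the Dock8+/- array; points are spots of 1 array, and bars are the mean and SD over spots. The spots of each gene do not overlap between the arrays, and their spread is that of repeated spots, not of mice. The share of all 10-spot probes without overlap is not given, so nothing particular to these genes is read from it.

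S100b, encoding a calcium-binding protein of glia, had an intensity of 21588 in Dock8-/- and 43718 in Dock8+/-. Its scaled signal was 7.21 in Dock8-/- and 7.17 in Dock8+/-, and the difference of 0.04 was smaller than the SD of 0.06 for a difference of single spots. Of all measured genes 51.0% had a lower difference. The sign of S100b turned under 4 settings, at -0.13 with quantile normalisation, -0.20 with normexp, -0.12 in the deposited value table and -1.81 on the spike-in scale.

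Of the surface proteins, Cdh19 was higher and Erbb3 was close to 0. Cdh19, a type II cadherin of neural crest-derived glia, had an intensity of 199.4 in Dock8-/- and 216.2 in Dock8+/-. Its scaled signal was 0.45 in Dock8-/- and -0.49 in Dock8+/-, or 1.93-fold higher. The difference lay between 0.73 and 0.97 under the 10 settings other than spike-in scaling, where it was -0.91. Like the Sox2 value, it rests on 1 dim spot below the median signal of measured genes, and dim probes leaned higher in Dock8-/-. Erbb3, the neuregulin receptor that supports glial survival, had an intensity of 220.0 in Dock8-/- and 488.0 in Dock8+/- on its brighter probe, a difference of -0.09. The dimmer Erbb3 probe, at chr10:128006424-128006483 on the minus strand (mm9), had 16.3 in Dock8-/- and 11.8 in Dock8+/-. Neither array read it well above background, and no difference is drawn from it.

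**Figure D3:**
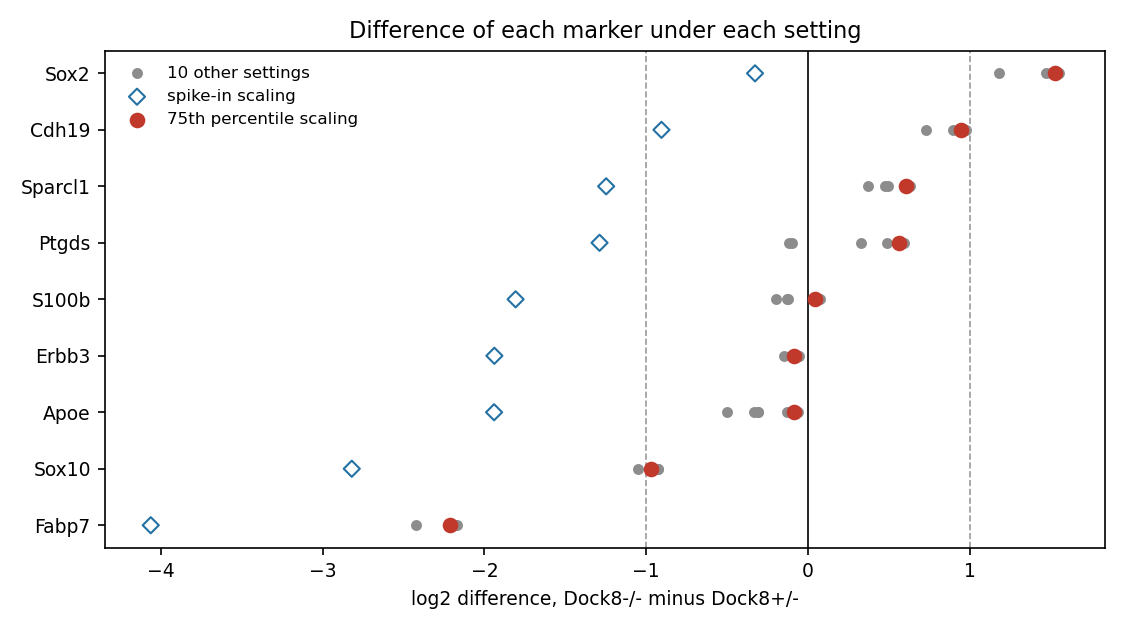
Log2 difference (Dock8-/- minus Dock8+/-) of each satellite glia marker, ordered by size; red points use 75th percentile scaling, grey points the other settings and blue diamonds spike-in scaling, and dashed lines mark 2-fold. Fabp7 stays at or below -2.17 in every setting shown, while all 9 markers lie below 0 on the spike-in scale.

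Fabp7 was lower than the 5 relatives of the FABP list that were measured on both arrays. All 5 were below 0 at 75th percentile scaling, but 1 lay above 0 with loess and with the 75th percentile of detected probes, and 2 were lower by 2-fold or more, with a list median of -0.45. Fabp4, the binding protein of adipocytes and capillary endothelium, differed by -1.06. Crabp1 differed by -0.45 and Fabp3 by -0.38. Pmp2, the myelin member of this family, was read on the Dock8+/- array only and was at least 3.05-fold lower, so its place relative to Fabp7 is not known. The remaining 5 on the array were not well above background on either.

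Partners of Apoe were spread on both sides of 0, with a median of -0.04 over 18 measured genes of lipoproteins, their receptors and lipid export. Of these, 1 was higher by 2-fold or more and 2 lower by 2-fold or more. Nr1h3, encoding the sterol sensor LXR alpha, was 4.07-fold lower, with probes at -2.31 and -2.02. Pltp, a phospholipid transfer protein, differed by -1.45. Apoc2, an activator of lipoprotein lipase, differed by 1.30, at dim intensities of 79.2 in Dock8-/- and 67.1 in Dock8+/-.

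Genes before and after Ptgds in prostaglandin metabolism lay on both sides of 0, with 4 of 10 measured genes above and 6 below at 75th percentile scaling and a median of -0.56. Of these 3 were lower by 2-fold or more and 0 higher by as much, and the mean of each gene's probes gave a median of -1.11 with 5 lower. The highest was Ptgs1, the constitutive cyclooxygenase gene, at 0.53, which was chosen after its value was seen. Pla2g4a, the phospholipase that frees arachidonic acid, was 5.39-fold lower, with intensities of 51.4 in Dock8-/- and 579.0 in Dock8+/-. Tbxas1, thromboxane synthase, was 4.05-fold lower, and Hpgd, which breaks down prostaglandins, differed by -1.53. Akr1b3 differed by -0.96. Ptgs2, the inducible cyclooxygenase, was read on the Dock8+/- array only and was at least 2.27-fold lower.

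The families of S100b, Sparcl1, Cdh19 and Erbb3 also did not share a direction. None of the 12 measured genes of the S100 list was 2-fold apart (0 higher, 0 lower), and their median was -0.15, with S100a6 at 0.43 and S100a3 at -0.72. Of 7 measured SPARC relatives 2 were lower by 2-fold or more, Smoc2 at -2.31 and Smoc1 at -2.04, with a median of -0.35, whereas Spock3 differed by 0.53. Among 15 measured cadherins the median was 0.06, and Cdh8, a type II cadherin of neurons, was 4.34-fold higher, with probes at 1.57 and 2.12. The Cdh8 signal was dim, at 126.7 in Dock8-/- and 60.9 in Dock8+/- on its brightest probe. Cdh2, the N-cadherin gene, differed by 0.86, Cdh11 by 0.81 and Cdh5, of endothelium, by -0.86, and Cdh3 was read on the Dock8-/- array only, at least 2.99-fold higher.

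In the neuregulin and ERBB list the median was -0.06 over 8 measured genes. Errfi1, an intracellular inhibitor of EGFR-family kinases, differed by 1.01, the one gene higher by 2-fold or more, and Egfr by -0.97. The ligand genes Nrg2 and Nrg3 differed by -0.74 and 0.62, although the Nrg3 probes ranged from -1.06 to 1.52. Erbb3, at -0.09, lay close to the median of this list.

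**Figure D4:**
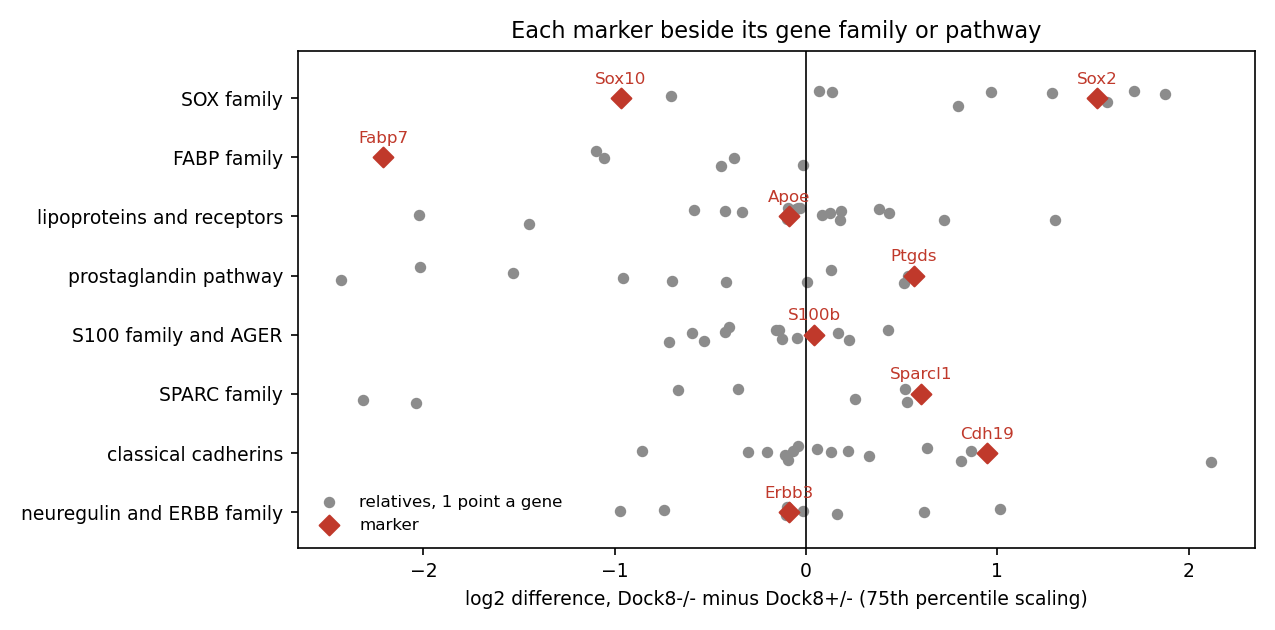
Log2 difference (Dock8-/- minus Dock8+/-, 75th percentile scaling) of each satellite glia marker (red diamonds) beside the measured genes of its family or pathway (grey points, 1 per gene). Fabp7 lies below all 5 measured FABP relatives, and Sox2 and Sox10 lie at 1.52 and -0.97 on either side of 0, whereas both are below 0 on the spike-in scale.

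Other genes of satellite glia were mostly above 0 at 75th percentile scaling, unlike Fabp7 and Sox10. Of 20 listed, 19 were measured, 15 lay above 0 and 4 below, 4 were higher by 2-fold or more and 0 lower by 2-fold or more, with a median of 0.51 that became -1.34 on the spike-in scale. Scrg1 was 2.90-fold higher. The glutamate transporter gene Slc1a3 (GLAST) differed by 1.06, and Kcnj10, encoding the inward rectifier potassium channel Kir4.1, by 1.02. Under normexp background correction 2 of the 19 were higher by 2-fold or more.

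Markers of central glia were mostly above 0 at 75th percentile scaling, as were Sox2, Cdh19, Ptgds and Sparcl1. On the spike-in scale these 4 genes lay below 0, and 3 of the 8 astrocyte markers still lay above 0, 1 of them by 2-fold or more. Of 8 astrocyte markers 5 were higher by 2-fold or more and 0 lower by 2-fold or more, with a median of 1.35 that became -0.50 on the spike-in scale. At 75th percentile scaling 6 lay above 0 and 2 below, Slc7a10 at -0.73 and Gjb6 at -0.17. Gfap, which reactive satellite glia also make, had intensities of 4570 in Dock8-/- and 1133 in Dock8+/-, a difference of 3.07. Agt, encoding angiotensinogen, differed by 2.65, Slc1a2 by 1.92 and Aqp4, a water channel of astrocytes, by 1.35. Of 7 measured oligodendrocyte markers 4 were higher by 2-fold or more, with a median of 1.11 that became -0.74 on the spike-in scale. Nkx6-2 differed by 1.28, Mag by 1.27, Olig2 by 1.15 and Mobp by 1.11. The Olig2 signal was dim, at 51.8 in Dock8-/- and 48.7 in Dock8+/-. Mag and Mbp stand in both the oligodendrocyte and the myelinating Schwann cell list. The summed processed intensity before scaling was 15423 in Dock8-/- and 11644 in Dock8+/- over the 8 astrocyte markers and 13502 in Dock8-/- and 14291 in Dock8+/- over the 7 oligodendrocyte markers. None of the 8 astrocyte markers was unread on either array (0 of 8), and the part of central glia in the marker values was not tested.

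Schwann cell markers, which share Sox10, Erbb3, S100b and Cdh19 with satellite glia, were divided. Of 15 measured myelinating markers 7 lay above 0 and 8 below at 75th percentile scaling. In this list 4 were lower by 2-fold or more and 1 higher by 2-fold or more. The median was -0.12, and 0.08 with the mean of each gene's probes. Mag, the one higher by 2-fold or more, differed by 1.27. Pllp differed by -1.49, Prx by -1.28 and Drp2 by -1.34 on its brightest probe, with another at 0.76. Cldn19 was read on the Dock8+/- array only and was at least 10.2-fold lower. Markers of non-myelinating and immature Schwann cells had a median of 0.36 over 10 genes at 75th percentile scaling and -1.49 on the spike-in scale, with Dhh, the desert hedgehog signal of Schwann cells, at -1.59, Sostdc1 at 1.41 and Scn7a at 0.98. The summed intensity over the myelinating markers before scaling was 94193 in Dock8-/- and 215503 in Dock8+/-, a ratio of 2.29 that stands beside the 2.09-fold difference of the arrays' 75th percentiles, and their part in the Sox10 value was not tested.

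Sensory neuron markers lay close to the median of all genes at 75th percentile scaling, with a median of 0.07 over 18 genes, 1 higher by 2-fold or more and 1 lower by 2-fold or more. Higher by 2.14-fold was Scn9a, which encodes a pain-related sodium channel, at dim intensities of 141.4 in Dock8-/- and 138.1 in Dock8+/-. Syt1 differed by 0.91 and Snap25 by 0.60. Relative to these neuronal genes, Fabp7 was lower and Sox2 higher in the Dock8-/- sample.

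Macrophage markers and fibroblast and meningeal markers, from cell types that express Apoe or Ptgds, were lower in the Dock8-/- sample. Astrocytes and oligodendrocytes also express Apoe or Ptgds, but their markers, described above, were mostly above 0 except on the spike-in scale. All 16 macrophage markers were below 0 at 75th percentile scaling, 11 of them lower by 2-fold or more, with a median of -1.29. With quantile normalisation, loess, the deposited value table and the 75th percentile of detected probes, 1 lay above 0. Their summed intensity before scaling was 8769 in Dock8-/- and 54348 in Dock8+/-, and Lyz2 differed by -2.87, Adgre1 by -1.92, C1qa by -1.85 and Aif1 by -1.79. All 15 fibroblast and meningeal markers were below 0 at 75th percentile scaling, with 13 lower by 2-fold or more and a median of -2.11. With the mean of each gene's probes, 1 of these lay above 0. Their summed intensity was 55663 in Dock8-/- and 422235 in Dock8+/-, and Pi16 differed by -3.81, Col1a1 by -2.92, Slc47a1 by -2.38 and Col3a1 by -3.21 on its brightest probe, with another at -0.42. Every listed macrophage, fibroblast and meningeal marker was well above background on both arrays. The brighter Apoe probe gave -0.09 and the dimmer one -0.91. These values and that of Ptgds, 0.56, lay above the medians of both lists. Some listed genes also lay near 0, with Ctss at -0.01, Trem2 at -0.15 and Pdgfra at -0.10. They stand beside the 11 macrophage and 13 fibroblast and meningeal markers lower by 2-fold or more. The part of macrophages and fibroblasts in the Apoe and Ptgds values was not tested. Endothelial and mural markers, beside Sparcl1, had a median of -0.30 over 11 measured genes, with Cspg4 at -1.52 and Pecam1 at 0.62.

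**Figure D5:**
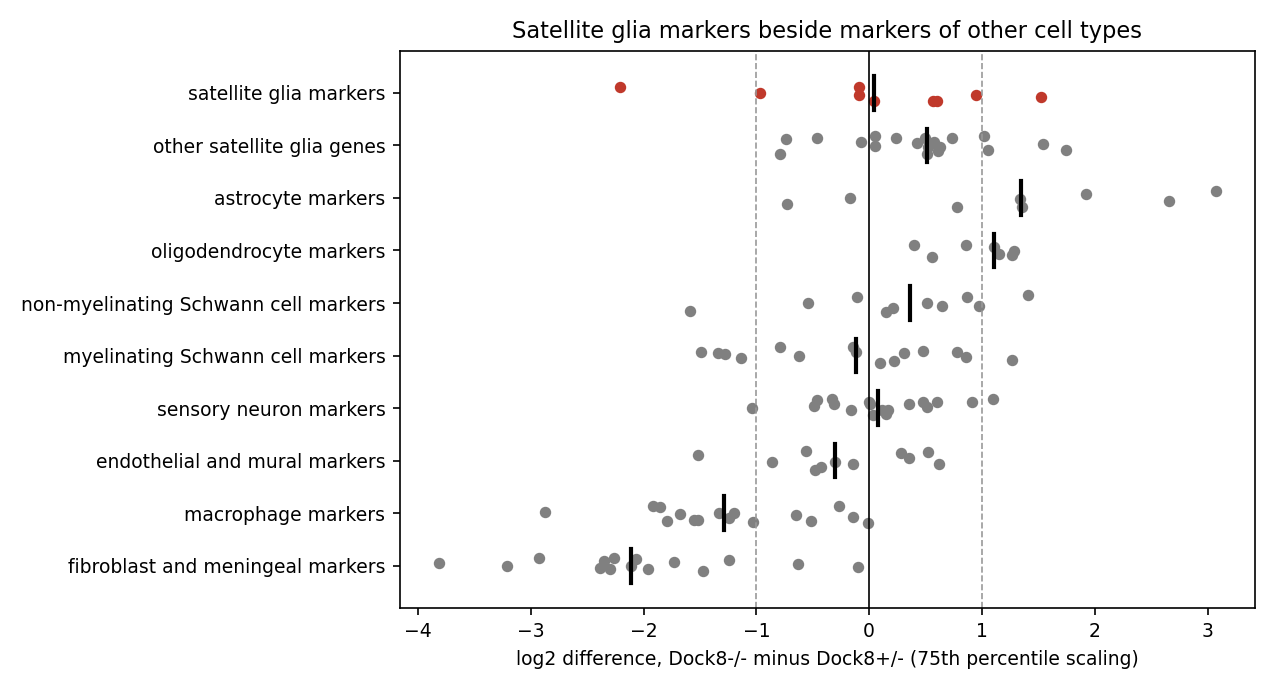
Log2 difference (Dock8-/- minus Dock8+/-, 75th percentile scaling) of the satellite glia markers (red) and of markers of other cell types (grey), 1 point per measured gene; black bars are medians and dashed lines mark 2-fold. The satellite glia markers spread from -2.21 to 1.52 around a median of 0.04, whereas all macrophage and all fibroblast and meningeal markers lie below 0.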

How the data were processed

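Gene expression was measured on 1-colour Agilent arrays, 1 per genotype, whose number limits the precision. The authors deposited scanner files with spot intensity on a linear scale, made with Agilent Feature Extraction 10.7.1.1 per the file headers (9.5.1.1 per the submitters' processing notes), in which the processed intensity is corrected by spatial and multiplicative detrending, as their parameters show. They also deposited a value table of intensity, with a median of 27.9 in each column and 98.9% of sorted values equal (tolerance 0), hence quantile normalised. Its scale is linear and its direction that of intensity (log2 correlation with the scanner files at least 0.999), no centring was seen, and 0 of its columns were unused.

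Here the spots of each probe were averaged as log2 processed intensity, relative to the array's 75th percentile over 56601 non-control probes. Spots marked non-uniform were dropped (1 on the Dock8-/- array, 3 on the Dock8+/- array), and 0 non-control spots were saturated on either array. Genes took their brightest probe and were named by RefSeq accession or symbol (assembly GRCm38.p6, for names only). Positions come from the scanner files (mm9), and exon annotation was not used here. Measured genes are those whose chosen probe passed the scanner's well-above-background call in both samples. For genes read on 1 array only, the fold is a bound against the other array's lowest well-above-background signal, or the dim probe itself where that was higher. Lists are described by counts and medians, and 2-fold is a description of size. Named relatives are up to 4 measured genes with the largest difference per list, and those read on 1 array with a bound of at least 2-fold, and a few that meet this rule are not reported here. The members and lists were chosen with earlier results of these data known. With 2 arrays, no gene was sought for a similar pattern. The 15 alternatives were other scalings, normexp (limma 3.58.1, offset 50), loess (span 0.3), the value table, other probe rules and filters, and thresholds. The calculation was tested on simulated data.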

Additional observations from a re-analysis of the deposited data

How the results depend on the processing

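No replicate could be left out, and no paired analysis was possible because each genotype had 1 array and no result came from a test. Of the 99 marker values under the 11 alternatives for a gene's value, 71 moved by less than the SD of a difference of single spots and 28 by more. Many of the 71 could not have moved by more. With 0 marker probes holding a repeat, leaving out repeat probes changed no marker, and the looser filter changed none either. The mean of each gene's probes changed Apoe alone, and the scalings to detected probes shifted all genes by a small constant. The count of 71 is therefore no measure of stability. Sox2, the one marker higher by 2-fold or more, turned to -0.33 on the spike-in scale. Of the markers within 2-fold, Cdh19 and Sparcl1 were below 0 there too, and Ptgds turned under 3 settings and S100b under 4. On that scale 0 markers were higher by 2-fold or more and 7 lower by 2-fold or more, with a marker median of -1.81, beside 57 genes higher and 16293 lower. Normexp correction gave 2 markers lower by 2-fold or more and a marker median of -0.15, beside 703 genes higher and 865 lower. The marker median was -0.12 under quantile normalisation and -0.10 in the deposited value table. The share of higher genes among those at least 2-fold apart was 56.4% at 75th percentile scaling, 45.8% with loess, 44.8% with normexp and 0.349% on the spike-in scale. A looser filter, positive and significant signal, gave 3403 genes higher and 2068 lower, and no filter 5437 and 2758. Mean signal at or above the median left 6 markers, 0 of them higher by 2-fold or more, with 466 genes higher and 475 lower. At 1.5-fold 3 markers were higher and 2 lower, beside 3890 and 3147 genes, and at 3-fold 0 markers were higher, beside 486 and 424 genes. Except where fewer genes were tested or the threshold itself differed, the cause was not tested. Signal over background limits what dim probes can show, as with the Erbb3 probe that neither array read.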
